A study of Mus musculus with 6 samples.

Results

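The mitochondrial carrier family SLC25 was followed in mouse leukemia stem cells, the leukemic cells able to start the disease anew, taken from liver and from bone marrow. The family was taken as every gene in the expression table whose symbol begins with Slc25a and a digit, without the pseudogene Slc25a5-ps, which gave 47 of 53735 genes. Genes of the family that carry other symbols, such as the uncoupling protein gene Ucp2, are outside this choice. Of these, 38 had a mean of at least 10 normalized counts and were tested. Another 5 had reads below that level, and 4 had 0 reads in all libraries.

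SLC25 proteins are built from repeats of paired membrane helices and sit, with few exceptions, in the inner mitochondrial membrane. They exchange nucleotides, phosphate, carboxylates, amino acids and cofactors between the cytosol and the matrix, and so link glycolysis, the citric acid cycle, the respiratory chain, fatty acid use and heme synthesis. In blood-forming cells they are best known for supplying iron and glycine to heme synthesis in red cell precursors, and ADP/ATP exchange serves every respiring cell.

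The liver group comprised 3 libraries of leukemia stem cells isolated from the liver of untreated C57 mice, labelled male, at day 13 after transplantation of leukemia cells. The bone marrow group comprised 3 libraries of the same kind of cell from bone marrow, at the same day and with the same labels. Per the labels the 3 libraries of each tissue are technical replicates, with no separate animals named. The values go against these labels, since libraries of one tissue differed in Xist and Y-linked RNA. Their reads also varied with 6.5 to 25.9 times the variance of sampling alone (chi-square per degree of freedom over genes). That ratio by itself does not tell technical from other replicates. What source the libraries share is not known, and p-values reflect library-to-library spread alone. Depth was 9.73 to 13.8 M reads in liver and 15.4 to 18.5 M in bone marrow. Values are read counts divided by the authors' size factor of each library, called normalized counts here, and 1 read was worth 0.988 to 1.42 of them in liver and 0.744 to 0.898 in bone marrow. All 8 stem and progenitor markers examined (Kit, Cd34, Flt3, Meis1, Hoxa9, Myb, Ly6a and Il3ra) had reads in both tissues, with sums of 11671 to 11758 in liver and 12746 to 13669 in bone marrow.

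Stretches before the starts of 4 members are shown, chosen by the members' values, and the part of these stretches in those values was not tested. Slc25a1 and Slc25a29 had the smallest unadjusted p among members lower and higher in liver. Slc25a43 and Slc25a5 are neighbours on chromosome X, 18.4 kb apart on the same strand, and were the most variable and the most abundant member. Each line gives up to 250 bases 5′ to 3′ on the gene's own strand, from RefSeq on GRCm38.p6, with bases in annotated exons left out. Capitals mark the GC boxes, CCAAT boxes and E-boxes found on either strand, whose letters are given in the next paragraph.
Slc25a1: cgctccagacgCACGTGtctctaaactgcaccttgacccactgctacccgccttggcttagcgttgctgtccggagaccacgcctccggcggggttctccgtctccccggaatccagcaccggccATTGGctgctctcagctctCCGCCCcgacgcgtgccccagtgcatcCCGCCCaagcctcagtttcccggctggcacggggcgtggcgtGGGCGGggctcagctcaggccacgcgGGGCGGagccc
Slc25a29: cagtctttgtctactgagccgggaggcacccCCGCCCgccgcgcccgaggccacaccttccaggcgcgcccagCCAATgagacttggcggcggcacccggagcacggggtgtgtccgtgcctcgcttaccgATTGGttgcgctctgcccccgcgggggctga
Slc25a43: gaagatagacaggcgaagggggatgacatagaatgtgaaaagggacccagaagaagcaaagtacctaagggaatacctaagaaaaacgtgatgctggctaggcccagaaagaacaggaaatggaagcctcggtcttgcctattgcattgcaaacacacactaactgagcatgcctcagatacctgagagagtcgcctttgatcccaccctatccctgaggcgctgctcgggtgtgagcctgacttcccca
Slc25a5: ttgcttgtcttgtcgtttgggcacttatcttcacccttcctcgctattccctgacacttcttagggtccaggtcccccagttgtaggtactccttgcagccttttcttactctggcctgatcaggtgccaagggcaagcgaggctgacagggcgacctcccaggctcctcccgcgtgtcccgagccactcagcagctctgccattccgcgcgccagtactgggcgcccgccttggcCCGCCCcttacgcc
The Slc25a1 stretch (chr16:17928220-17928469, minus strand) held 4 GC boxes, 1 CCAAT box and 1 E-box. The Slc25a29 stretch (chr12:108835884-108836045, minus strand) is the whole gap of 162 bases to the annotated start of Slc25a47, which runs the other way, and it held 1 GC box and 2 CCAAT boxes. The Slc25a43 stretch (chrX:36743382-36743631, plus strand) held none of the motifs searched and was 50.8% G or C, and the Slc25a5 stretch (chrX:36795347-36795596, plus strand) held 1 GC box and was 61.6% G or C.

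Promoter entries were found for 36 of the 47 members, 46 starts in all, and both strands of the 250 bases before each start were searched. A GC box, GGGCGG, stood in 69.6% of the members' entries and in 32.7% of all 32851 entries. The box CCAAT stood in 45.7% against 33.8%, the E-box CACGTG in 17.4% against 6.02%, and the ETS core CCGGAAG in 13.0% against 6.91%. For the NRF1 core TGCGCA the shares were 8.70% and 6.43%, and for TATAAA 4.35% and 12.4%. Median G and C content was 57.4% in members' entries and 52.4% in all, and the comparison was not matched for it. These are matches of letters, not binding sites.

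Levels within the family spanned about 4 orders of magnitude per kb of annotated exon. Slc25a5, the ADP/ATP carrier ANT2, which brings ADP in and ATP out, stood at 7338 normalized counts per kb in liver and 6804 in bone marrow. It alone made up 47.1% to 47.8% of the family's summed level per kb in the liver libraries, against 44.6% to 45.7% in the bone marrow libraries. The next 6 by mean level were Slc25a11, the oxoglutarate carrier, Slc25a4, the ADP/ATP carrier ANT1, Slc25a3, the phosphate carrier, Slc25a1, the citrate carrier, Slc25a39, which serves glutathione import, and Slc25a12, the aspartate/glutamate carrier aralar. The 7 highest members of a library held 82.2% to 82.5% of the family in liver and 81.6% to 82.6% in bone marrow. The neighbours Slc25a3, Slc25a1 and Slc25a39 in this order did not keep clear of each other in every library. In liver replicate 2 Slc25a4 (1243 per kb) also stood above Slc25a11 (1203). This order and the shares per kb depend on the exon lengths used. Without division by length, Slc25a3 (mean of 5152 normalized counts over all libraries) and Slc25a12 (3188) stood above Slc25a11 (2695), and Slc25a5 stayed highest (11639). As a share of all normalized counts the family took 0.294% to 0.303% of a liver library and 0.290% to 0.294% of a bone marrow library.

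**Figure D1:**
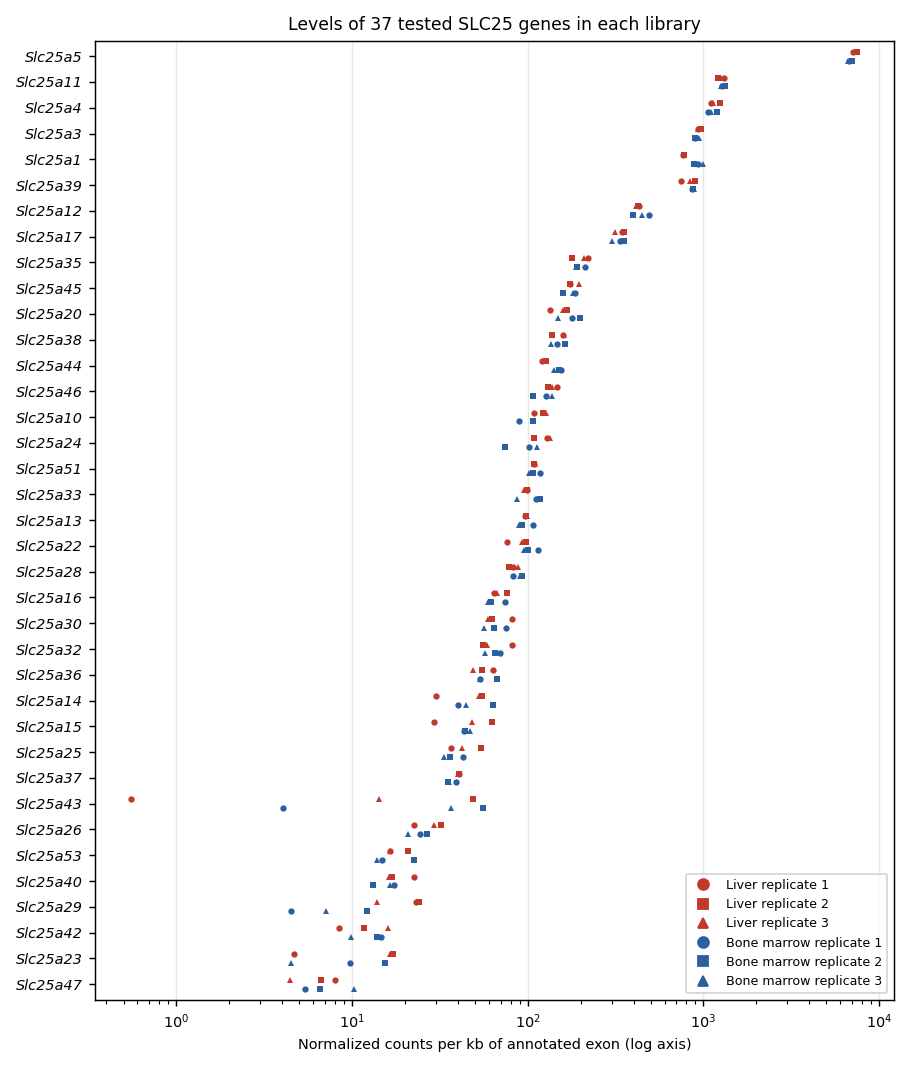
Normalized counts per kb of annotated exon (log axis) for 37 of the tested genes in the 3 liver (red) and 3 bone marrow (blue) libraries, 1 point per library, ordered by mean level. Slc25a5 stands apart at the top, and Slc25a43 has the widest spread between libraries of one tissue.

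No SLC25 gene passed the threshold between liver and bone marrow. With limma 0 of 38 tested members had an adjusted p under 0.05, against 1.01% of all 14298 genes tested, and the lowest adjusted p was 0.11. At an unadjusted p under 0.05 there were 4 members, 10.5% of those tested, against 15.7% of all genes. On the recovered reads edgeR called 0 members, against 0.944% of all genes, and DESeq2 called 1, Slc25a1, against 4.35%. The tissues did not overlap in 6 members, 15.8% of those tested, against 22.3% of all genes. In 4 of these all liver libraries were above all bone marrow libraries, and in 2 below, where all genes gave 11.4% and 10.9%.

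The family's median log2 fold change was 0.03, with 22 members above 0 and 16 below, beside a median of -0.01 over all genes tested. Of all genes tested 48.4% were above 0. In 34 of 38 members the log2 fold change was smaller than 0.3 in size. The 95% limma interval lay within a 1.5-fold change either way for 26 members (68.4%), against 54.3% of all genes, and reached beyond it for the other 12. For those 26 a change of that size is outside the interval, and for the 12 at least one direction of it is not.

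**Figure D2:**
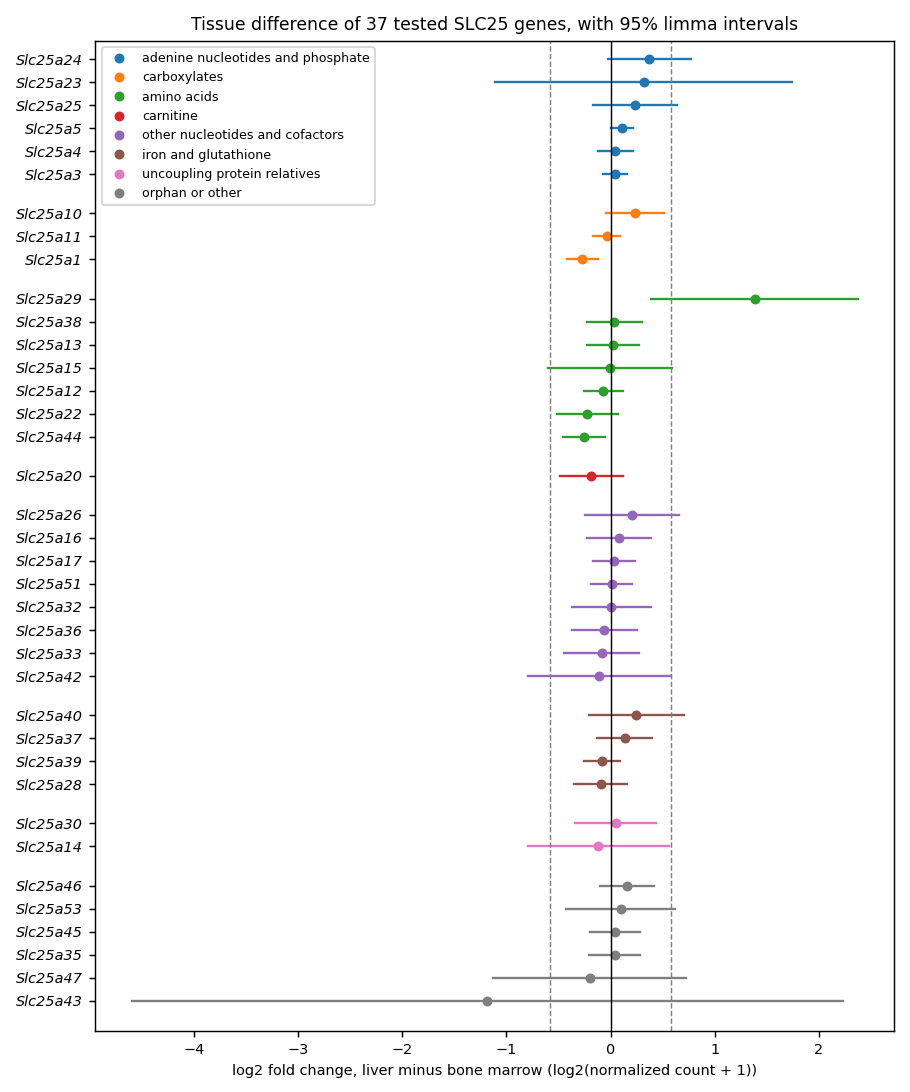
Log2 fold change of liver minus bone marrow with its 95% limma interval for 37 of the tested genes, grouped by substrate class. Solid and dashed vertical lines stand at no change and at 1.5-fold, and the widest interval is that of Slc25a43, -4.60 to 2.23.

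Among the carriers of adenine nucleotides and phosphate, all 6 tested members had a positive log2 fold change (median 0.17), and none passed. Slc25a5 held 11692, 12382 and 12161 normalized counts in liver replicates 1, 2 and 3, against 11127, 11584 and 10888 in bone marrow. Every liver library was above every bone marrow library, by little. Liver averaged 12078 ± 352 and bone marrow 11199 ± 354 (SD, n = 3 each). The log2 fold change was 0.11 ± 0.05 (SE), with limma adjusted p = 0.31 and a 95% interval from 0.0015 to 0.22. Reads of Slc25a5 can be shared with processed copies of this gene, of which the annotated Slc25a5-ps had 0 to 3.43 normalized counts, and since no value measures such sharing its level is uncertain. In bulk libraries, fewer cells of a type and less RNA per cell cannot be told apart.

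Slc25a4 differed by 0.05 on the log2 scale (2719 ± 180 in liver, 2633 ± 166 in bone marrow) and Slc25a3 by 0.04 (5231 ± 134 and 5072 ± 153). Of the calcium-regulated ATP-Mg/phosphate carriers, Slc25a24 had the largest difference of the class. It held 443, 371 and 459 normalized counts in liver, against 350, 256 and 385 in bone marrow, and the tissues overlapped (log2 fold change 0.37 ± 0.17, limma adjusted p = 0.35). Slc25a25 differed by 0.23 and Slc25a23 by 0.32, with intervals of -0.17 to 0.64 and -1.11 to 1.75. Slc25a41 had 1 read in liver and 0 in bone marrow. Slc25a31, the testis ADP/ATP carrier ANT4, and Slc25a54 had 0 reads in every library, which allows up to 2.96 to 4.26 normalized counts in a liver library and 2.23 to 2.69 in a bone marrow library. The class made up 61.7%, 62.8% and 62.3% of the family's level per kb in liver, against 59.1%, 60.2% and 59.3% in bone marrow, so that the tissues did not overlap. Most of the class was Slc25a5, which alone took 47.1% to 47.8% in liver and 44.6% to 45.7% in bone marrow. The difference of the class was therefore not separate from that of this gene, and its other members were not summed alone. The class shares add up to a whole with the other classes and are not independent of them.

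Among the carboxylate carriers, Slc25a1 had the smallest p of the family. It exports citrate to the cytosol, where citrate yields acetyl-CoA for fatty acid and sterol synthesis. Slc25a1 (chromosome 16, 17925223 to 17928219, minus strand, GRCm38) held 1659, 1683 and 1685 normalized counts in liver, against 2001, 1912 and 2157 in bone marrow. The 3 liver libraries lay close together and below all 3 bone marrow libraries. Liver averaged 1675 ± 14.4 and bone marrow 2023 ± 124 (SD, n = 3 each). The log2 fold change was -0.27 ± 0.06 (SE), with a 95% interval of -0.42 to -0.12, or 0.829-fold. Its limma adjusted p was 0.11 and its edgeR adjusted p 0.11, so the difference did not pass, while the DESeq2 adjusted p was 0.033. Behind these levels were 4262 liver reads and 7363 bone marrow reads, and its exons overlap no other annotated gene.

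Slc25a10, the dicarboxylate carrier that exchanges malate or succinate for phosphate, held 375, 422 and 438 normalized counts in liver, against 308, 370 and 371 in bone marrow. The tissues did not overlap, narrowly, at 375 against 371 (log2 fold change 0.24, interval -0.04 to 0.52, limma adjusted p = 0.40). Slc25a11, a carrier of the malate-aspartate shuttle and the highest member of this class, held 2772, 2550 and 2658 in liver and 2700, 2814 and 2676 in bone marrow. Its interval of -0.17 to 0.09 is among the narrow ones of the family, and the tissues overlapped. Slc25a21, the oxodicarboxylate carrier, had 0 reads. The class took 13.3% to 14.5% of the family's level per kb in liver, below 15.1% to 15.9% in bone marrow.

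**Figure D3:**
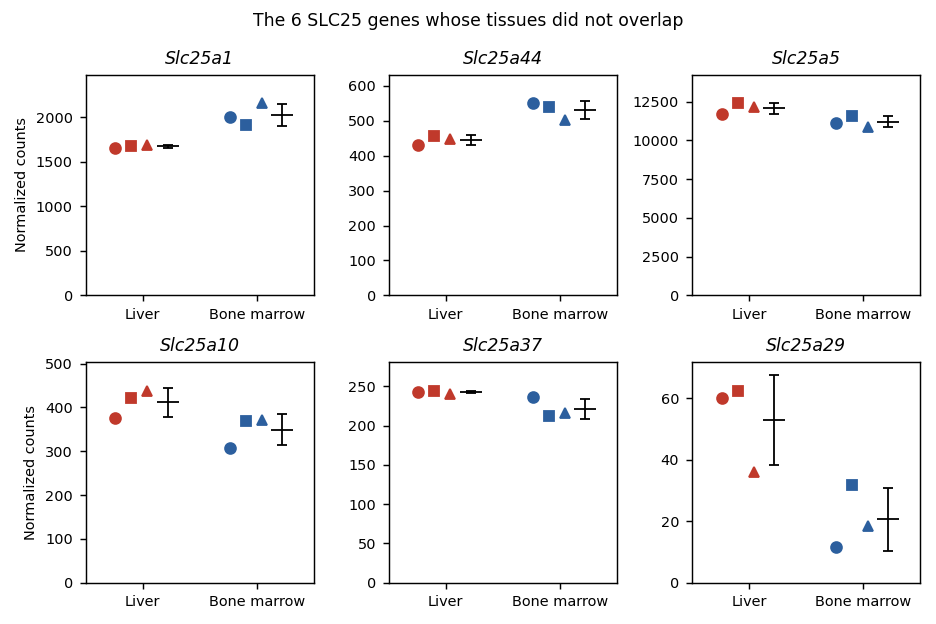
Normalized counts in each liver (red) and bone marrow (blue) library of the 6 genes whose tissues did not overlap, with circles, squares and triangles for replicates 1, 2 and 3 and a black mean ± SD of 3 libraries. Slc25a1 and Slc25a44 are lower in liver and the other 4 higher, none with a limma adjusted p under 0.05.

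Of 7 tested amino acid carriers, 3 had a positive and 4 a negative log2 fold change (median 0.00). Slc25a29, which carries arginine, lysine and other basic amino acids, had the largest fold difference of the family. It held 60.3, 62.5 and 36.1 normalized counts in liver, against 11.7, 31.7 and 18.6 in bone marrow. All liver libraries were above all bone marrow libraries, although liver replicate 3 at 36.1 was near bone marrow replicate 2 at 31.7. The log2 fold change was 1.38 ± 0.43 with an interval of 0.39 to 2.38 (limma adjusted p = 0.19, DESeq2 adjusted p = 0.12). Only 135 liver reads and 75 bone marrow reads stood behind these values. Slc25a47, an orphan carrier known as a liver gene that starts 162 bases away on the opposite strand, held 23.7, 19.9 and 13.2 in liver and 16.2, 19.7 and 30.5 in bone marrow, and its tissues overlapped.

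Slc25a44, the carrier of branched-chain amino acids, held 430, 456 and 447 normalized counts in liver, against 549, 540 and 502 in bone marrow. Every liver library was lower, with a log2 fold change of -0.25 ± 0.09 and an interval of -0.46 to -0.05 (limma adjusted p = 0.22). Slc25a12, the highest member of the class, held 3172, 3120 and 3027 in liver and 3587, 2923 and 3296 in bone marrow, and the tissues overlapped. Slc25a22, a glutamate carrier, differed by -0.22 (interval -0.52 to 0.07), Slc25a38, which brings glycine to heme synthesis, by 0.04, and Slc25a13, the aspartate/glutamate carrier citrin, by 0.02. Slc25a15, the ornithine carrier of the urea cycle, averaged 262 ± 93.3 in liver and 251 ± 10.3 in bone marrow. Its liver libraries were spread from 165 to 351 and its bone marrow libraries from 245 to 263. Slc25a18, the other glutamate carrier, had 9 reads in liver and 15 in bone marrow, and Slc25a2, the other ornithine carrier, had 0 reads in liver and 3 in bone marrow.

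Slc25a20, the carnitine/acylcarnitine carrier that admits fatty acids for oxidation, held 652, 806 and 773 normalized counts in liver, against 866, 957 and 721 in bone marrow. The tissues overlapped (log2 fold change -0.19 ± 0.13, interval -0.49 to 0.12, limma adjusted p = 0.55).

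All 9 tested carriers of other nucleotides and cofactors overlapped between tissues, 5 with a positive and 4 with a negative log2 fold change, from -0.11 to 0.21. Slc25a17, a peroxisomal carrier of cofactors and the highest of the class, held 973, 1002 and 896 normalized counts in liver, against 959, 999 and 853 in bone marrow. Slc25a26, which imports S-adenosylmethionine for methylation in the matrix, had the largest difference. It held 109, 154 and 141 in liver and 118, 128 and 100 in bone marrow (0.21 ± 0.19, limma adjusted p = 0.66). Slc25a51, the NAD carrier, was nearly level, with 600 ± 5.82 in liver and 597 ± 43.1 in bone marrow and an interval of -0.19 to 0.21. The folate and FAD carrier Slc25a32 differed by 0.01, the pyrimidine nucleotide carriers Slc25a33 and Slc25a36 by -0.09 and -0.06, the coenzyme A carrier Slc25a42 by -0.11 and Slc25a16 by 0.08. Of the Slc25a33 exon bases 14.9% are shared with Gm13068 on the opposite strand, whose reads cannot be told apart in unstranded libraries.

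The class of iron and glutathione carriers held 4 members, all tested. Slc25a39, the highest of them, held 2059, 2462 and 2307 normalized counts in liver, against 2358, 2417 and 2446 in bone marrow, with overlap. Its relative Slc25a40 held 190, 142 and 136 in liver and 145, 110 and 138 in bone marrow (0.25 ± 0.19, limma adjusted p = 0.60). The mitoferrins import iron. Slc25a37, mitoferrin 1, which is known from red cell precursors, held 243, 244 and 241 in liver, just above 236, 212 and 216 in bone marrow (0.13, interval -0.13 to 0.40, limma adjusted p = 0.63). Slc25a28, mitoferrin 2, found in most tissues, averaged 310 ± 19.4 in liver and 331 ± 21.5 in bone marrow.

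Markers of red cell precursors were lower in every liver library when summed. The 10 erythroid genes examined summed to 4280 to 4830 normalized counts in liver, against 6587 to 7284 in bone marrow, most of it Hbb-bt and Hba-a1, while Slc4a1 had 0 reads in both tissues. Their part in the values of Slc25a37 and Slc25a38 was not tested. Of 12 hepatocyte markers 8, among them Alb, Ttr, Fabp1 and Cps1, had 0 reads in liver, and the sum of 2672 to 3414 in liver and 2878 to 5953 in bone marrow was mostly Apoa1. Ass1 of that list was higher in every liver library, at 369 to 397 against 211 to 289 in bone marrow. Of 9 markers of Kupffer cells and liver endothelium, Clec4f, Vsig4 and Cd5l were at 0 in liver, and the sum of 436 to 1397 in liver and 343 to 1079 in bone marrow was nearly all Pecam1. Mast cell and basophil markers (8 of 8 with reads in both tissues) summed to 17355 to 24756 in liver and 27035 to 32971 in bone marrow, with Gata2 the most abundant. Within that list Tpsb2, a mast cell tryptase, passed with limma (0, 0 and 1.20 in liver, against 61.1, 175 and 124 in bone marrow), while the basophil protease Mcpt8 averaged 1714 in liver and 925 in bone marrow. Neutrophil markers (9 of 9) summed to 422 to 3356 in liver and 119 to 156 in bone marrow, and Mpo and Cxcr2 passed with limma. The list of B, T and NK cell markers summed to 11569 to 11959 in liver and 10556 to 11344 in bone marrow, nearly all of it Nkg7, with Ms4a1 and Cd3e at 0 in both. Their part in the carrier values was not tested.

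The relatives of the uncoupling proteins were low. Slc25a30, the highest of them per kb, held 372, 284 and 270 normalized counts in liver, against 342, 292 and 258 in bone marrow. Slc25a14 (UCP5) held 71.1, 129 and 125 in liver and 94.3, 149 and 106 in bone marrow (-0.12 ± 0.29, limma adjusted p = 0.89). Its log2 fold change was 0.16 without liver replicate 1 and 0.071 without bone marrow replicate 2. Both overlapped between tissues. Slc25a27 (UCP4), just under the level tested, had 1, 15 and 8 reads in liver replicates 1, 2 and 3 and 2, 22 and 7 in bone marrow.

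Among the orphan and other members, Slc25a35 was highest per kb, with 814, 657 and 772 normalized counts in liver, against 778, 705 and 694 in bone marrow, and the tissues overlapped. Of its exon bases 31.3% are shared with Rangrf on the opposite strand, so this level may hold reads of that gene. Slc25a46, an outer membrane protein of mitochondrial shape, differed by 0.16 (interval -0.10 to 0.42), Slc25a45 by 0.05 and Slc25a53 by 0.10. Slc25a34 had 4 reads in liver and 0 in bone marrow, and Slc25a48 had 0 in both.

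The shares of closely related carriers in their pair or group overlapped between tissues. Shares were taken from normalized counts per kb of exon, and with 3 libraries against 3 an exact permutation test cannot go below p = 0.1, so no test was made. Slc25a5 held 86.6%, 85.8% and 86.8% of the ANT1 and ANT2 level in liver and 86.4%, 85.5% and 85.7% in bone marrow. Slc25a12 made up 81.3% ± 0.573 of the aspartate/glutamate pair in liver and 82.2% ± 1.1 in bone marrow, the rest being Slc25a13. Slc25a22 made up 98.0% ± 1.27 of the glutamate carriers in liver and 97.9% ± 0.509 in bone marrow.

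The mitoferrin pair was less one-sided. Slc25a28 held 67.0%, 65.7% and 68.8% of it in liver, against 67.6%, 72.5% and 71.5% in bone marrow, with overlap. Slc25a36 held 36.1% ± 2.74 of the pyrimidine nucleotide pair in liver and 35.6% ± 2.87 in bone marrow. Slc25a39 held 97.8% ± 0.611 of its pair with Slc25a40 in liver and 98.2% ± 0.259 in bone marrow. Among the ATP-Mg/phosphate carriers, Slc25a24 took 75.9%, 59.8% and 69.6% in liver and 66.1%, 59.2% and 74.9% in bone marrow, where differences between replicates exceeded the difference of 1.70 percentage points between tissues. Slc25a15 was the only ornithine carrier with reads in 5 of the libraries, and it held 95.7% in bone marrow replicate 1.

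**Figure D4:**
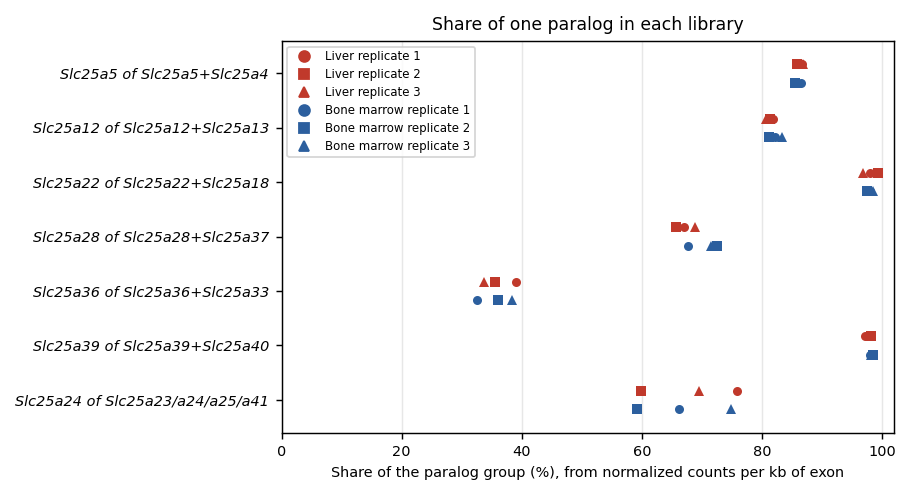
Share (%) of one paralog in its pair or group, from normalized counts per kb of exon, in the 3 liver (red) and 3 bone marrow (blue) libraries, 1 point per library. The tissues overlap in each of the 7 groups drawn, and Slc25a24 has the widest spread between libraries.

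The largest replicate difference shared by both tissues, taking the smaller tissue value, was that of Slc25a43. The next, 0.66 log2 units for Slc25a23, was below the tissue difference of 1.38 for Slc25a29. Replicate differences compare single libraries, and tissue differences compare means of 3. Slc25a43, an orphan carrier gene on chromosome X, held 0.988, 86.7 and 25.3 normalized counts in liver replicates 1, 2 and 3 and 7.18, 99.3 and 64.7 in bone marrow. Replicate 1 was lowest and replicate 2 highest in both tissues, and the tissues overlapped (limma log2 fold change -1.19 ± 1.46, adjusted p = 0.75, and 0.35 without liver replicate 1). Replicate 2 exceeded replicate 1 by 5.46 log2 units in liver and 3.62 in bone marrow. These rest on 1 read in liver replicate 1 and 8 in bone marrow replicate 1.

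Libraries of the same tissue also stood apart in sex-linked transcripts, although all are labelled male. Together, Eif2s3y, Ddx3y, Uty and Kdm5d, which are Y-linked, came to 0, 2675 and 1634 normalized counts in liver, against 145, 2987 and 1553 in bone marrow, so that the libraries with the least Y-linked RNA also had the least Slc25a43. The X-inactivation RNA Xist ran the other way, with 6229, 1.42 and 2425 in liver and 4860, 4.28 and 2486 in bone marrow. The part of this difference in the values of Slc25a43 was not tested. Slc25a5, next to it on chromosome X, varied from 10888 to 12382 over all libraries.

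The 4 other members with the largest replicate difference shared by both tissues were Slc25a23, Slc25a14, Slc25a40 and Slc25a53. Slc25a23 held 24.7, 91.0 and 86.7 normalized counts in liver, against 51.2, 81.3 and 23.8 in bone marrow, with replicate 2 highest in both. Slc25a14, also X-linked, was 0.85 log2 units higher in replicate 2 than in replicate 1 in liver and 0.65 in bone marrow. Slc25a53, X-linked too, held 130, 166 and 131 in liver and 118, 178 and 111 in bone marrow, again with replicate 2 highest. Slc25a40 ran the other way, with replicate 2 minus replicate 1 at -0.41 in liver and -0.40 in bone marrow on the log2 scale. Replicates 1 and 2 differed in the same direction in both tissues for 24 of 38 members (63.2%), and for 61.1% of all genes tested, so the family as a whole did not stand out.

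**Figure D5:**
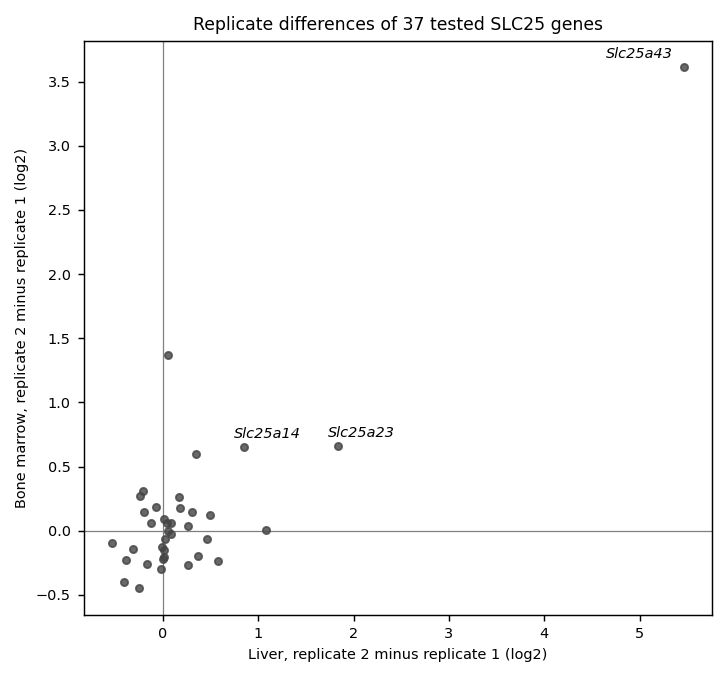
Replicate 2 minus replicate 1 on the log2 scale in liver (horizontal) and bone marrow (vertical), 1 point per gene for 37 of the tested genes. Slc25a43 lies far from the rest at 5.46 and 3.62, followed by Slc25a23 and Slc25a14.

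Genes that work beside the carriers were read from the same fit, in 6 lists of 94 genes, 86 of them tested. With limma 0 passed in either direction, against 1.01% of all genes, and 14 had an unadjusted p under 0.05, against 15.7%. On the recovered reads edgeR called 0 and DESeq2 called 1, where all genes gave 0.944% and 4.35%. The median log2 fold change of the 86 was 0.10, with 52 above 0 and 34 below, where 48.4% of all genes were above 0. In the list of malate-aspartate shuttle and citrate handling the median was 0.14 over 16 genes, 12 of them above 0, and the tissues did not overlap in 8, all higher in liver, where 11.4% of all genes were higher in every liver library. Idh1, the cytosolic isocitrate dehydrogenase, held 454, 554 and 488 normalized counts in liver, against 317, 338 and 346 in bone marrow. All liver libraries were higher (log2 fold change 0.57 ± 0.11, limma adjusted p = 0.066, DESeq2 adjusted p = 0.0027). Idh3a, a subunit of the mitochondrial NAD-linked isocitrate dehydrogenase, averaged 2776 ± 174 in liver and 2341 ± 84.8 in bone marrow (0.24, limma adjusted p = 0.14).

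Carrier precursors reach the inner membrane through the TOM pore and the TIM22 complex. In that list 12 of 15 genes had a positive log2 fold change (median 0.11), 0 passed, and the tissues did not overlap in 7, all higher in liver, beside the same 11.4% of all genes. The pore gene Tomm40 averaged 2233 ± 61.8 in liver and 1892 ± 95.7 in bone marrow (0.24, limma adjusted p = 0.13), and Tomm7 1840 ± 110 in liver and 1564 ± 71.2 in bone marrow (0.23, limma adjusted p = 0.18). Among 20 tested channels and carriers without an Slc25a symbol, some of which belong to the family by sequence, the median was 0.12. Of these 13 were above 0 and 7 below. The tissues did not overlap in 5 higher and 3 lower in liver, where all genes gave 11.4% and 10.9%. The outer membrane channel genes Vdac1 and Vdac2 differed by 0.17 and 0.14, with limma adjusted p of 0.25 and 0.27. On the other side, and chosen after their values were seen, Micu2, a regulator of the calcium uniporter, differed by -0.20 and Ucp2 by -0.12 (limma adjusted p = 0.28 and 0.30). Ucp2 averaged 15410 ± 774 normalized counts in liver and 16769 ± 389 in bone marrow.

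The other lists lay nearer to 0. Iron-sulfur cluster and heme synthesis had a median of -0.02 over 19 genes, 9 above and 10 below 0. Its smallest p belonged to Cpox (0.35, limma adjusted p = 0.34) and Fech (-0.28, limma adjusted p = 0.38), enzymes of the last steps of heme synthesis. Mitochondrial folate, NAD and glycine use had a median of 0.02 over 10 genes, led by Dld (0.12, limma adjusted p = 0.34) and Mthfd2 (0.25, limma adjusted p = 0.59). All 6 tested genes of the carnitine shuttle had a negative log2 fold change (median -0.07), led by Cpt1a, its rate-limiting enzyme (-0.18, limma adjusted p = 0.36), and Cpt2 (-0.14, limma adjusted p = 0.69), and all overlapped between tissues, as did Slc25a20.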

How the data were processed

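RNA was sequenced from 3 liver and 3 bone marrow libraries of mouse leukemia stem cells. Per the labels' protocols, SMARTer cDNA and Nextera XT tagmentation were used, which keep no strand information. The submitters' processing notes name STAR 2.6.0c, DESeq2 1.16.1, bcl2fastq 2.19.0, R 3.4.1 and Trimmomatic 0.36. For build, annotation and read counter, nothing is stated in the sources used here. The deposited signal is a count of reads per gene, scaled by the authors with a size factor for each library, per the labels' processing tools and the table's name. All values (100% in each library, tolerance 0.01) were whole multiples of the smallest, so whole reads were recovered.

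Tissue was fitted with limma 3.58.1 (R 4.3.3, trended variance, no other term) to log2(normalized count + 1) of the 14298 genes averaging 10 normalized counts or more. Tests were two-sided with Benjamini-Hochberg adjustment over these genes and a threshold of 0.05. The added 1 makes fold changes of low genes understate their size beside a smaller pseudocount (Slc25a43 -1.19, and -1.30 with 0.5), yet they can exceed those fitted to reads (-0.65 with edgeR). On the recovered reads, edgeR 4.0.16 called 135 genes and DESeq2 1.42.0 called 622, against 145 with limma. The limma step was also run on simulated data, and its recovery of small changes is not given here. Other alternatives were TMM and quantile scaling, pseudocounts, filters, array weights, the replicate number as a term and left-out libraries.

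Exon lengths are unions of GENCODE M21 exons (GRCm38), matched by symbol for 47 of 47 members, and that annotation was not the authors'. Values in every library are given for members called by limma, by edgeR, by DESeq2 or with the replicate term, for the highest and the most changed member of each substrate class, and for the 5 members with the largest replicate difference shared by both tissues. From each companion list the called genes, otherwise up to 2 with the smallest p, are named. Any other member was chosen after its values were seen. Members and lists were chosen with earlier results of these data known. Counting limits of 3 reads cover counting error only. The counts and medians include 1 tested member that is not reported here. Figures were drawn with matplotlib 3.10.9.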

Additional observations from a re-analysis of the deposited data

How the results depend on the processing

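No SLC25 gene was called with limma under TMM or quantile scaling, pseudocounts of 0.5 and 10, no filter (43 members tested), a mean of at least 50 (35 tested), with the replicate number as a block, without any single library, or without both replicate 3 libraries. DESeq2 called 1 member (Slc25a1). Array weights, whose estimation stopped before full convergence, called 5 of 38 (Slc25a1, Slc25a5, Slc25a10, Slc25a29 and Slc25a44). With these weights 3217 of all 14298 genes tested were called. In the companion lists, array weights called 20 of 86 genes, and DESeq2 and the replicate block 1 each, Idh1. Leaving out single libraries gave 0 to 1. Over all genes the calls numbered 145, against 3217 with array weights, 622 with DESeq2, 525 with the replicate block, 6 to 427 without single libraries, and 2 and 15 without both replicate 3 libraries, without and with the block.

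Of 15 members followed through 18 alternatives, 9 kept the sign of their log2 fold change, and 6 not called changed it in 13 values. Without single libraries they ran from -2.39 to 0.35 for Slc25a43 (0.35 without liver replicate 1), -0.27 to 0.16 for Slc25a14, -0.093 to 0.15 for Slc25a30, -0.15 to 0.0010 for Slc25a12, -0.026 to 0.13 for Slc25a35 and -0.034 to 0.080 for Slc25a17. Without both replicate 3 libraries, with or without the block, Slc25a35 stood at -0.019. Array weights gave -0.026 for Slc25a30 and 0.14 for Slc25a14. The cause was not tested.

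Deviations from the tissue means of same-numbered libraries correlated at 0.44, 0.40 and 0.06 for replicates 1, 2 and 3 over 14298 genes. Liver replicate 3 correlated best with bone marrow replicate 2 (0.15), while Xist and Y-linked RNA ranked the 3 numbers alike in both tissues. Whether same-numbered libraries share a source was not tested. The main fit left the number out. With it as a term limma called 525 genes and 0 SLC25 members, against 145 and 0 without it. Depth limits members such as Slc25a29, Slc25a23 and Slc25a47, which rest on 131 to 345 reads over all libraries.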
